A study of Mus musculus with 9 samples.

Results

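The phagocyte NADPH oxidase is the enzyme with which white blood cells turn oxygen into superoxide. Its genes were followed here in cultures of mouse bone marrow cells that carry oncogenes of acute myeloid leukaemia. The members were 6 genes, Cybb, Cyba, Ncf1, Ncf4, Rac1 and Rac2, found by their gene names in the table of each library. Of these 6, 5 were found among 55274 gene identifiers and all 5 passed the filter on low values, as did 13493 genes of the series; Cyba was not analysed here.

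The enzyme is assembled on demand. Cybb encodes gp91phox, the catalytic chain that carries electrons from NADPH across the membrane, and it sits there as a complex with a smaller chain. Activation brings cytosolic proteins, among them p47phox (Ncf1, the organizer) and p40phox (Ncf4, which binds a phosphoinositide), to this complex together with a Rac GTPase, of which Rac2 is the form of blood cells and Rac1 is found in nearly all cells.

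Bone marrow was taken from C57BL/6J mice given 5-fluorouracil at 150 mg/kg, with harvest on day 4. The cells were stimulated for 48 h, infected with retroviral vectors, sorted by fluorochrome and expanded in 10 ng/mL human interleukin-6, 6 ng/mL mouse interleukin-3 and 20 ng/mL mouse stem cell factor. NRASG12D cells carried an active mutant of the RAS protein NRAS from a vector that also encodes a blue fluorescent protein. NUP98-NSD1 cells carried a fusion of a nuclear pore protein with a histone methyltransferase, with a green fluorescent protein. NUP98-NSD1+NRASG12D cells carried both, and each group had 3 libraries. All transgenes were expressed from viral promoters, and there was no group with an empty vector. The study's text describes NRASG12D cultures as mostly mast cells, so comparisons with them also compare cell types. The groups with the fusion differed in markers of cell types as well, and this limit holds for all 3 comparisons. Nothing in the labels says whether the 3 libraries of a group came from separate mice or infections, and p-values then measure the spread between these libraries only.

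Levels are given in FPKM, fragments scaled to the length of the transcript and the size of the library, so that genes can be compared per length. Depth was estimated from the steps between low values, at 2.24e+07 to 3.53e+07 fragments a library. Fold changes are log2 ratios of FPKM + 1 between groups, which understate the change of genes with low levels, and come with the standard error (SE) and the p-value of limma, adjusted over all 13493 tested genes. A gene is said to have risen or fallen where its adjusted p was under 0.05. Most genes shifted upward against NRASG12D cells. Over the tested genes the median log2 ratio was 0.27 in NUP98-NSD1 and 0.23 in NUP98-NSD1+NRASG12D cells, against -0.06 between the groups with the fusion. After a rescaling of the libraries by the median ratio of their genes these medians were -0.01, 0.03 and 0.03, so the size and direction of small changes against NRASG12D cells depend on the scaling.

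Marker genes differed strongly between the groups. The 12 mast cell markers summed to 36236, 38380.2 and 37543 FPKM in the NRASG12D libraries, to 29133, 29246 and 35366 FPKM in NUP98-NSD1 and to 1031, 4736 and 791 FPKM in NUP98-NSD1+NRASG12D. Cma1 was the most abundant of them in NRASG12D and Cpa3 in the other libraries; Cpa3 is listed at 0 in all 3 NRASG12D libraries, which can be a failed estimate. Without Cpa3 the sums were 15719.7, 16682 and 20988 FPKM in NUP98-NSD1 and 678, 2915 and 511 FPKM in NUP98-NSD1+NRASG12D, beside unchanged sums in NRASG12D. The 14 markers of the neutrophil lineage summed to 27.7, 39.0 and 27.4 FPKM in NRASG12D, where Ctsg led, to 6429.6, 5989.8 and 1912 FPKM in NUP98-NSD1, led by Mpo, and to 15543, 9649 and 20397 FPKM in NUP98-NSD1+NRASG12D, led by Mpo in replicate 1 and by S100a8 in the others. In the NRASG12D libraries, 9, 2 and 6 of these 14 markers were listed at 0, Camp and Ltf in each. Such a 0 can also be a failed estimate. The sums therefore separated the groups, and no library with the fusion overlapped an NRASG12D library. In NUP98-NSD1+NRASG12D against NUP98-NSD1 cells 0 mast cell markers rose and 9 of 12 fell, with a median log2 fold change of -4.28. There 5 of the 14 markers of the neutrophil lineage rose and 0 fell. Of 12 markers of monocytes and macrophages 4 rose and 1 fell. Among all tested genes, 2.3% were higher and 6.31% lower in this comparison. From NRASG12D to NUP98-NSD1 cells 3 mast cell markers rose and 6 fell, with a median of -0.77. These counts and this median include Cpa3, whose listed 0 in NRASG12D can be a failed estimate. In the same comparison all 14 neutrophil markers rose, and 11 monocyte and macrophage markers rose and 0 fell. The shares of all tested genes were 42.2% higher and 9.98% lower. In the NRASG12D libraries, 13, 8 and 13 of the neutrophil markers were under 1 FPKM, and 7, 5 and 7 of the monocyte and macrophage markers. Markers that low passed the filter only with the libraries with the fusion, so a rise against NRASG12D was favoured in advance.

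The 12 markers of monocytes and macrophages gave 97.0, 145 and 69.6 FPKM in NRASG12D, 2502, 1822 and 1861 FPKM in NUP98-NSD1 and 5378, 11878 and 14414 FPKM in NUP98-NSD1+NRASG12D, and Lyz2 was the most abundant in every library but NRASG12D replicate 3. Eosinophil markers gave 48.0, 231 and 7.44 FPKM in NUP98-NSD1+NRASG12D, with Prg2 leading, and at most 42.9 FPKM elsewhere. The megakaryocyte sum of NUP98-NSD1+NRASG12D replicate 2 was 1210.1 FPKM, of which Pf4 gave 1157 FPKM, against 75.7 and 115 FPKM in the other replicates of the group, 479, 563 and 494 FPKM in NRASG12D and 241, 241 and 299 FPKM in NUP98-NSD1, where Itga2b led. Basophil markers summed to 406, 447 and 406 FPKM in NRASG12D, 858, 1603 and 951 FPKM in NUP98-NSD1 and 322, 487 and 29.2 FPKM in NUP98-NSD1+NRASG12D. Sums over dendritic and erythroid markers were at most 13.6 and 49.4 FPKM, and those of B and T cells at most 0.517 and 0.213 FPKM. Of the stroma and endothelium list only Pecam1, which myeloid cells also express, stood out, at 35.6 to 106 FPKM. In bulk RNA, fewer cells of a type and less RNA per cell cannot be told apart, and the part of cell type in the results below was not tested.

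Cybb (ENSMUSG00000015340.10, minus strand of chromosome X from 9435252 to 9487771 of GRCm38), the catalytic subunit, had 0.128, 0.117 and 0.0731 FPKM in the NRASG12D libraries, 33.2, 19.4 and 23.2 FPKM in the NUP98-NSD1 libraries and 56.2, 144 and 87.0 FPKM in the NUP98-NSD1+NRASG12D libraries. Among the tested genes its ranks from the top were 12886, 13069 and 13051 in NRASG12D cells. They were 3717, 5389 and 4514 in NUP98-NSD1 and 2506, 697 and 1450 in NUP98-NSD1+NRASG12D cells. Cybb passed the filter only through the libraries with the fusion, so a rank near the bottom in NRASG12D cells was largely fixed by the filter. The groups did not overlap, and replicate 2 was the highest of the NUP98-NSD1+NRASG12D libraries. At the longest transcript of 4752 bases, the NRASG12D values correspond to about 15, 20 and 8 fragments, above the 0.0263, 0.0179 and 0.0282 FPKM that 3 fragments would give, and this floor covers counting error only. So RNA of Cybb was detected there, at a very low level.

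Compared to NRASG12D cells, Cybb rose in NUP98-NSD1 cells by a log2 fold change of 4.54 (SE 0.19, adjusted p = 3.64e-05), and in NUP98-NSD1+NRASG12D cells by 6.35 (SE 0.32, adjusted p = 5.45e-05). The ratio of the mean FPKM was 238, with 152 and 454 for the nearest and the farthest libraries, and 902, with 439 and 1969.7. It was also higher in NUP98-NSD1+NRASG12D than in NUP98-NSD1 cells, by 1.81 (SE 0.36, adjusted p = 0.0300), a ratio of means of 3.79, between cultures that also differed in markers of cell types. The call between the groups with the fusion was lost without NUP98-NSD1 replicate 1, 2 or 3 (adjusted p = 0.0588, 0.114 and 0.118), without NUP98-NSD1+NRASG12D replicate 3 (adjusted p = 0.0906), without the filter on low values (adjusted p = 0.128), after median-ratio scaling (adjusted p = 0.0509) and with a replicate block (adjusted p = 0.0527). Over all alternatives the fold change was 1.47 to 2.14. With a pseudocount of 0.1, which understates low genes less, the change in NUP98-NSD1 cells against NRASG12D was 6.92.

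**Figure D1:**
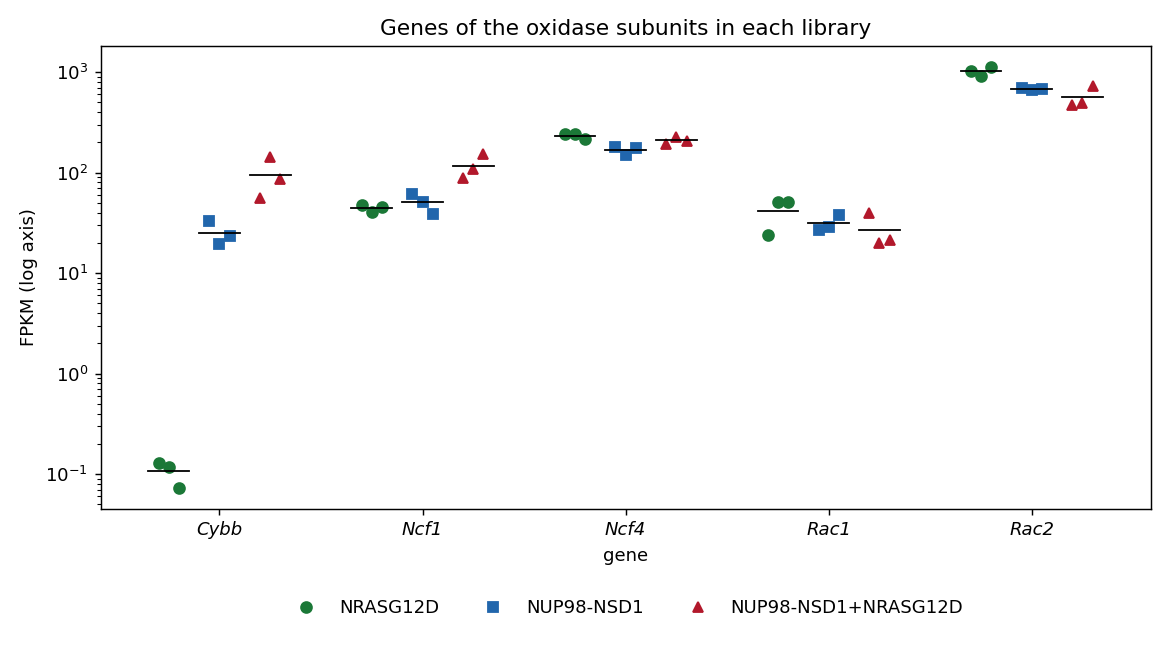
FPKM on a log axis of 5 subunit genes in each of the 9 libraries, with points for libraries, colours and shapes for groups and a black line at the mean of 3 libraries. Cybb lies between 0.0731 and 0.128 FPKM in the NRASG12D libraries and between 19.4 and 144 FPKM in the others, while Ncf4 and Rac2 lie at 149 FPKM or more in all 9.

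Ncf1 (ENSMUSG00000015950.13, minus strand of chromosome 5 from 134220053 to 134229625), the organizer, had 47.6, 41.1 and 46.0 FPKM in the NRASG12D libraries, 61.8, 50.9 and 39.1 FPKM in the NUP98-NSD1 libraries and 88.2, 109.9 and 155 FPKM in the NUP98-NSD1+NRASG12D libraries. The NUP98-NSD1+NRASG12D libraries were all above the others, and the other groups overlapped. It did not pass between NUP98-NSD1 and NRASG12D cells, at 0.15 (SE 0.16, adjusted p = 0.467), with a 95% interval of -0.23 to 0.53, and the sign turned after quantile normalization (-0.16), after median-ratio scaling (-0.18) and without NUP98-NSD1 replicate 1 (-0.005), over a range of -0.18 to 0.32. In NUP98-NSD1+NRASG12D cells it rose by 1.34 (SE 0.22, adjusted p = 0.00392) against NRASG12D, in all 15 alternative fits, and by 1.19 (SE 0.26, adjusted p = 0.0399) against NUP98-NSD1 cells, where markers of cell types differed too. The latter call was lost without NUP98-NSD1 replicate 1, 2 or 3 (adjusted p = 0.0753, 0.135 and 0.148), without NUP98-NSD1+NRASG12D replicate 2 or 3 (adjusted p = 0.0745 and 0.0984), without the filter (adjusted p = 0.145), after median-ratio scaling (adjusted p = 0.0504) and with a replicate block (adjusted p = 0.0797).

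Ncf4 (ENSMUSG00000071715.12, plus strand of chromosome 15 from 78244801 to 78262580) had 243, 241 and 215 FPKM in the NRASG12D libraries, 179.8, 149 and 176 FPKM in the NUP98-NSD1 libraries and 194, 229 and 208 FPKM in the NUP98-NSD1+NRASG12D libraries. Its RNA was thus abundant in NRASG12D cells, which had almost none of Cybb. The NUP98-NSD1 libraries were the lowest, and the NRASG12D and NUP98-NSD1+NRASG12D libraries overlapped. From NRASG12D to NUP98-NSD1 cells Ncf4 fell, with -0.47 (SE 0.10, adjusted p = 0.00814), which is 0.74 below the median of all genes, and with -0.77 and -0.81 after quantile and median-ratio scaling. The change in NUP98-NSD1+NRASG12D cells was -0.15 (SE 0.15, adjusted p = 0.452) against NRASG12D, and after quantile normalization -0.54 with an adjusted p of 0.0427. It was -0.39 after median-ratio scaling and -0.10 without NUP98-NSD1+NRASG12D replicate 1, and passed in neither. Against NUP98-NSD1 cells it was 0.32 (SE 0.16, adjusted p = 0.295).

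Rac2 (ENSMUSG00000033220.7, minus strand of chromosome 15 from 78559167 to 78572783), the GTPase of blood cells, had 1018, 912 and 1127 FPKM in the NRASG12D libraries, 689, 657 and 685 FPKM in the NUP98-NSD1 libraries and 473, 498 and 731 FPKM in the NUP98-NSD1+NRASG12D libraries. Among the 5 members with values, which leave out Cyba, it was the most abundant in every library. Every NRASG12D library was above every library with the fusion, whose groups overlapped. Rac2 fell in NUP98-NSD1 cells, at -0.58 (SE 0.10, adjusted p = 0.00402), and in NUP98-NSD1+NRASG12D cells, at -0.87 (SE 0.23, adjusted p = 0.0260), with ratios of means of 0.665 and 0.557. The call of the former was lost with all 9 libraries in a single fit (adjusted p = 0.0556), and its size was -0.92 after median-ratio scaling. The latter was lost without the filter (adjusted p = 0.0767) and without NRASG12D replicate 1, 2 or 3 (adjusted p = 0.0966, 0.0718 and 0.112). Between the groups with the fusion the fold change was -0.28 (SE 0.23, adjusted p = 0.541). It was -0.48 and -0.17 without NUP98-NSD1+NRASG12D replicate 3 and 1, and ranged over -0.48 to -0.06 in the alternatives, the latter with array weights.

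Rac1 (ENSMUSG00000001847.14, minus strand of chromosome 5 from 143503634 to 143528036) had 23.8, 50.7 and 50.6 FPKM in the NRASG12D libraries, 27.02, 28.8 and 37.8 FPKM in the NUP98-NSD1 libraries and 39.3, 20.0 and 21.3 FPKM in the NUP98-NSD1+NRASG12D libraries. Replicates differed by as much as the groups, with 1 low NRASG12D and 1 high NUP98-NSD1+NRASG12D library, and all groups overlapped. No comparison passed, with -0.34 (SE 0.29, adjusted p = 0.357) for NUP98-NSD1 and -0.60 (SE 0.37, adjusted p = 0.230) for NUP98-NSD1+NRASG12D against NRASG12D, and -0.26 (SE 0.28, adjusted p = 0.673) between the groups with the fusion. Over the alternatives these values ranged over -0.70 to -0.17, -0.96 to -0.43 and -0.56 to -0.09. Without NRASG12D replicate 1 the first of these was -0.70 (adjusted p = 0.0178). The last was -0.56 without NUP98-NSD1+NRASG12D replicate 1 and -0.09 without its replicate 2. Of the 50-base stretches of Rac1 transcripts, 50.3% also occur in Daglb, which lies across it in antisense, and it is not stated that counting used the strand. Daglb had 6.41 to 14.7 FPKM. The like share was 7.45% for Ncf1, mostly with Gtf2ird2 on the opposite strand (2.37 to 5.96 FPKM), 1.29% for Rac2 and 0% for Cybb and Ncf4.

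Rac2 made up 97.7%, 94.7% and 95.7% of the summed FPKM of Rac1 and Rac2 in the NRASG12D libraries, 96.2%, 95.8% and 94.8% in NUP98-NSD1 and 92.3%, 96.1% and 97.2% in NUP98-NSD1+NRASG12D. The shares overlapped among all groups. A ratio within a library does not depend on the scaling between libraries. Over the 3 pairs of groups, the difference of the mean shares was -0.447 percentage points for NUP98-NSD1 minus NRASG12D, -0.834 for NUP98-NSD1+NRASG12D minus NRASG12D and -0.387 for NUP98-NSD1+NRASG12D minus NUP98-NSD1. Exact permutation tests, two-sided, gave p = 0.9, 0.7 and 0.9 and an adjusted p of 0.9 for each, where 0.1 is the smallest p that 3 libraries against 3 allow. Left out, NRASG12D replicate 1 turned the first difference to 0.388 and the next to 0.001, and NUP98-NSD1+NRASG12D replicate 1 turned the next to 0.606 and the last to 1.05.

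Within libraries, the order of the 5 members was led by Rac2 and then Ncf4 in all 9. Cybb came last of them in the NRASG12D libraries, at 0.00959%, 0.00943% and 0.00508% of their summed FPKM. In NUP98-NSD1 it came last or next to last, at 3.35%, 2.14% and 2.42%, and in NUP98-NSD1+NRASG12D cells at places 4, 3 and 4, at 6.60%, 14.4% and 7.24%. Per FPKM of Cybb there were 372, 349.9 and 629 FPKM of Ncf1 in NRASG12D, 1.86, 2.63 and 1.68 in NUP98-NSD1 and 1.57, 0.763 and 1.78 in NUP98-NSD1+NRASG12D. Ncf4 exceeded Ncf1 by 4.68 to 5.87 times in NRASG12D, 2.91 to 4.49 times in NUP98-NSD1 and 1.34 to 2.202 times in NUP98-NSD1+NRASG12D libraries. The sum of the 5 members was 1333, 1244 and 1439 FPKM in NRASG12D, 991, 906 and 961 FPKM in NUP98-NSD1 and 851, 1001 and 1202 FPKM in NUP98-NSD1+NRASG12D, of which Rac2 gave 49.8% to 78.3%. Levels overlapped for Rac1 with Ncf1 in NRASG12D, for Rac1 with Cybb in NUP98-NSD1, and for Cybb with Ncf1 in NUP98-NSD1+NRASG12D cells.

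**Figure D2:**
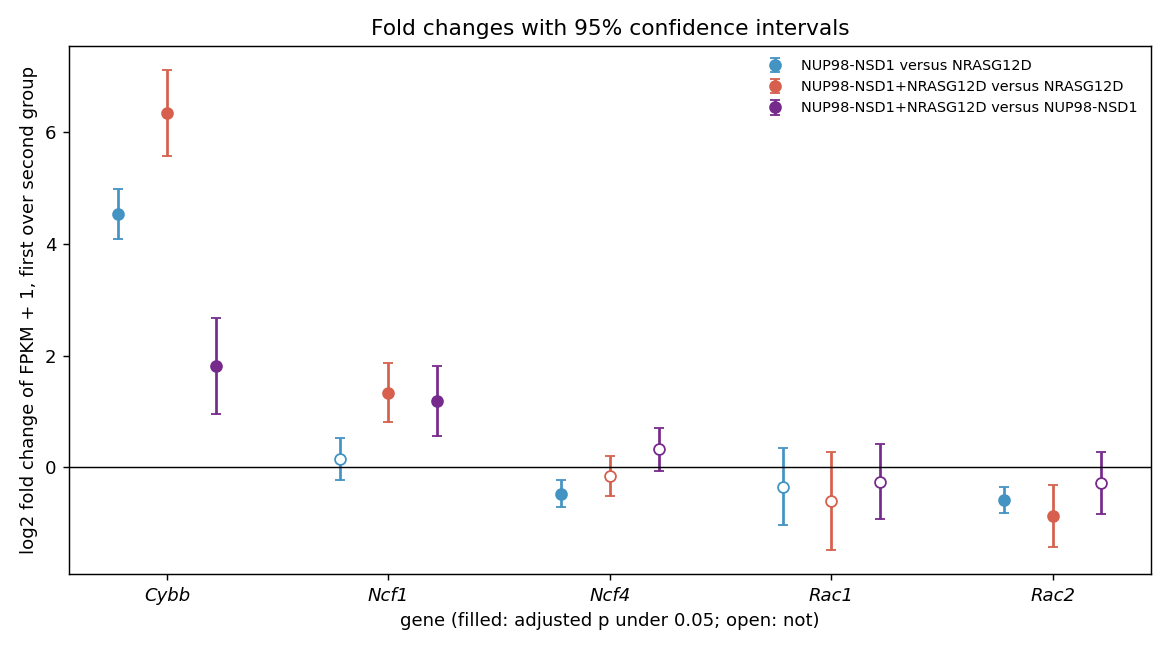
Log2 fold changes of FPKM + 1 for the 3 comparisons of groups, with 95% confidence intervals as bars, filled where the adjusted p was under 0.05. Cybb changed by 4.54, 6.35 and 1.81, while the intervals of Rac1 include 0 in all 3 comparisons. In NUP98-NSD1 against NRASG12D cells, the sign of Ncf1 turns with the scaling of the libraries.

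Counted over the 5 members, 3 passed between NUP98-NSD1 and NRASG12D cells, where 52.1% of all tested genes did. Cybb rose (42.2% of all genes) and Ncf4 and Rac2 fell (9.98%), and the groups did not overlap for 3 members, against 64.2% of all genes. In NUP98-NSD1+NRASG12D against NRASG12D cells 3 passed, against 38.3% of all genes, with Cybb and Ncf1 higher (24.2%) and Rac2 lower (14.1%), and 3 did not overlap (58.6%). Much of the transcriptome moved in these comparisons, and the direction of its calls depended on scaling. As deposited, 5689 genes were higher and 1347 lower in NUP98-NSD1, against 3059 and 3146 after median-ratio scaling and 2620 and 3451 after quantile normalization. For NUP98-NSD1+NRASG12D the counts were 3266 and 1907, 2665 and 2574, and 2152 and 3063. Between the groups with the fusion 2 passed, Cybb and Ncf1, both higher, against 8.61% of all genes, of which 2.3% were higher and 6.31% lower, and 3 did not overlap (31.4%). By limma, 0 members fell there, also at an unadjusted p under 0.05. The first 2 comparisons share the NRASG12D libraries and the last 2 the NUP98-NSD1+NRASG12D libraries, so their counts do not stand for independent results.

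Partners of the enzyme were followed in a list of 16 genes for the chaperone, the proton channel and the proteins that load or unload Rac. Of these, 4 rose and 4 fell in NUP98-NSD1 cells, 4 rose and 3 fell in NUP98-NSD1+NRASG12D cells against NRASG12D, and 1 rose and 2 fell between the groups with the fusion. Their median log2 fold changes were 0.11, 0.23 and 0.02, beside 0.27, 0.23 and -0.06 for all genes. Higher and lower were 42.2% and 9.98%, 24.2% and 14.1%, and 2.3% and 6.31% of all tested genes in these comparisons, as deposited. Cybc1, whose product is the chaperone of the membrane complex, had 35.4, 38.3 and 30.4 FPKM in the NRASG12D libraries, 43.1, 38.6 and 32.6 FPKM in the NUP98-NSD1 libraries and 51.4, 44.4 and 39.0 FPKM in the NUP98-NSD1+NRASG12D libraries. It passed in no comparison (0.13, 0.36 and 0.23), and the first turned to -0.20 after median-ratio scaling and -0.17 after quantile normalization. Over the alternatives the values ranged over -0.20 to 0.23, 0.06 to 0.46 and 0.07 to 0.33. Rap1a, a small GTPase bound to the complex, did not pass either, at -0.07 (SE 0.09, adjusted p = 0.521), -0.48 (SE 0.17, adjusted p = 0.0562) and -0.41 (SE 0.17, adjusted p = 0.189). The first of these became -0.41 to -0.37 and passed after median-ratio scaling and after quantile normalization (adjusted p = 0.0154 to 0.0287), and the next became -0.85 to -0.48 and passed without NUP98-NSD1+NRASG12D replicate 1, in the fit of all 9 libraries, with array weights, after median-ratio scaling and after quantile normalization (adjusted p = 0.00144 to 0.0214). The range of the first was -0.41 to -0.007.

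Hvcn1, the proton channel that balances the charge moved by the oxidase, had 7.56, 6.41 and 13.0 FPKM in the NRASG12D libraries, 53.5, 43.8 and 22.7 FPKM in the NUP98-NSD1 libraries and 80.5, 83.0 and 71.1 FPKM in the NUP98-NSD1+NRASG12D libraries. The groups did not overlap. It rose by 2.01 (SE 0.35, adjusted p = 0.00405) and 3.04 (SE 0.25, adjusted p = 0.000245) against NRASG12D, in all alternatives, and had 1.03 (SE 0.31, adjusted p = 0.0901) between the groups with the fusion, which passed in none and was 0.68 without NUP98-NSD1 replicate 3. Of its 50-base stretches, 39.7% also occur in Tctn1 on the opposite strand, which had 1.86 to 3.66 FPKM.

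Prex1 and Tiam1, factors that load Rac with GTP, moved in opposite directions. Prex1, which answers to phosphoinositides and G proteins, had 0.226, 0.612 and 0.284 FPKM in the NRASG12D libraries, 10.1, 9.32 and 6.55 FPKM in the NUP98-NSD1 libraries and 21.2, 22.5 and 14.4 FPKM in the NUP98-NSD1+NRASG12D libraries. Tiam1 had 54.6, 76.9 and 79.6 FPKM in the NRASG12D libraries, 31.9, 34.4 and 45.2 FPKM in the NUP98-NSD1 libraries and 11.6, 14.9 and 11.6 FPKM in the NUP98-NSD1+NRASG12D libraries. Thus the gene that was nearly silent in NRASG12D cells was the higher in NUP98-NSD1+NRASG12D cells, and in each of these genes the groups did not overlap. The fold changes of Prex1 were 2.80 (SE 0.19, adjusted p = 0.000175), 3.88 (SE 0.22, adjusted p = 8.16e-05) and 1.08 (SE 0.24, adjusted p = 0.0397) in the 3 comparisons. The first was 4.27 with a pseudocount of 0.1, and the last was lost without NUP98-NSD1 replicate 1, 2 or 3, without NUP98-NSD1+NRASG12D replicate 1 or 2 and without the filter (adjusted p = 0.0504 to 0.143). Tiam1 fell in all 3, at -0.90 (SE 0.18, adjusted p = 0.00670), -2.37 (SE 0.20, adjusted p = 0.000253) and -1.47 (SE 0.19, adjusted p = 0.00940), and its last call was lost only without the filter (adjusted p = 0.0512). Tiam2, from 19.2 to 21.6 FPKM in NRASG12D to 1.05 to 4.73 FPKM in NUP98-NSD1+NRASG12D, had -0.56 and -2.76 against NRASG12D and passed between the groups with the fusion as well (-2.1998, adjusted p = 0.0224), with -2.66 to -1.57 over the alternatives. The first was lost without NRASG12D replicate 1 or 3, without NUP98-NSD1 replicate 1 or 2, in the fit of all 9 libraries and without the filter (adjusted p = 0.0788 to 0.232) and was -0.88 after median-ratio scaling and -0.88 after quantile normalization, and the last was lost without NUP98-NSD1 replicate 1, 2 or 3, without NUP98-NSD1+NRASG12D replicate 2 and without the filter (adjusted p = 0.0562 to 0.103), at -2.33 to -2.01.

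Vav3, another loader of Rac, was at 0.0528, 0.531 and 0.0381 FPKM in NRASG12D and at 4.22, 2.96 and 3.06 FPKM in NUP98-NSD1+NRASG12D, a rise of 1.88 (SE 0.22, adjusted p = 0.00100). In NUP98-NSD1 it had 1.63, 1.91 and 0.653 FPKM and 0.97 (SE 0.26, adjusted p = 0.0187), which was lost without NRASG12D replicate 1 or 3, without NUP98-NSD1 replicate 1 or 2, without the filter and after quantile normalization (adjusted p = 0.0586 to 0.240) and was 2.54 with a pseudocount of 0.1 and 0.40 after quantile normalization. The rise in NUP98-NSD1+NRASG12D was 3.87 with a pseudocount of 0.1. Arhgap15, which switches Rac off, rose in both, by 1.11 (SE 0.23, adjusted p = 0.00755) and 1.31 (SE 0.20, adjusted p = 0.00256), in all alternatives. Its 0.20 between the groups with the fusion turned to -0.04 with array weights and -0.08 without NUP98-NSD1 replicate 3, with a range of -0.08 to 0.39.

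Among 13 kinases and lipid enzymes that activate the oxidase, 12 were tested. In NUP98-NSD1 cells 4 rose and 5 fell, in NUP98-NSD1+NRASG12D cells 4 rose and 4 fell against NRASG12D, and 1 rose and 3 fell between the groups with the fusion. The medians were 0.01, -0.16 and -0.06, against 0.27, 0.23 and -0.06 for all genes, and the shares higher and lower were 42.2% and 9.98%, 24.2% and 14.1%, and 2.3% and 6.31% of all tested genes. Pak1, a kinase that binds active Rac, had 0.136, 0.862 and 0.299 FPKM in the NRASG12D libraries, 15.9, 17.5 and 8.06 FPKM in the NUP98-NSD1 libraries and 32.1, 21.4 and 18.6 FPKM in the NUP98-NSD1+NRASG12D libraries. It rose by 3.34 (SE 0.31, adjusted p = 0.000539) and 4.12 (SE 0.28, adjusted p = 0.000128), in all alternatives. Prkcb, a protein kinase C that phosphorylates p47phox, had 74.4, 66.2 and 80.4 FPKM in the NRASG12D libraries, 35.7, 35.6 and 46.7 FPKM in the NUP98-NSD1 libraries and 4.73, 9.84 and 5.92 FPKM in the NUP98-NSD1+NRASG12D libraries. It fell in all 3 comparisons and all alternatives, at -0.89 (SE 0.13, adjusted p = 0.00229), -3.30 (SE 0.25, adjusted p = 0.000183) and -2.41 (SE 0.26, adjusted p = 0.00699). Pak1 and Prkcb thus separated the groups in opposite directions, without overlap, though Pak1 did not pass between the groups with the fusion.

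Prkca, a related kinase, had 88.1, 84.7 and 89.6 FPKM in the NRASG12D libraries, 48.0, 47.4 and 66.4 FPKM in the NUP98-NSD1 libraries and 2.30, 9.65 and 3.89 FPKM in the NUP98-NSD1+NRASG12D libraries. It fell in each, at -0.70 (SE 0.14, adjusted p = 0.00562), -3.99 (SE 0.40, adjusted p = 0.000497) and -3.29 (SE 0.42, adjusted p = 0.00925). The first was lost in the fit of all 9 libraries (adjusted p = 0.167), and the last was lost without the filter (adjusted p = 0.0604). For phosphoinositide 3-kinases the subunits differed. Pik3r5, a regulatory chain of the gamma form, had 0.364, 1.29 and 0.601 FPKM in the NRASG12D libraries, 7.87, 4.68 and 3.62 FPKM in the NUP98-NSD1 libraries and 11.9, 23.3 and 13.2 FPKM in the NUP98-NSD1+NRASG12D libraries. Pik3cd, the catalytic chain of the delta form, went from 131 to 137 FPKM in NRASG12D to 29.7 to 53.2 FPKM in NUP98-NSD1+NRASG12D. Their fold changes against NRASG12D were 1.85 and 3.27 for Pik3r5 and -0.49 and -1.65 for Pik3cd, all past the threshold. The -0.49 of Pik3cd was lost in the fit of all 9 libraries (adjusted p = 0.0905) and was -0.82 after median-ratio scaling and -0.78 after quantile normalization. Between the groups with the fusion Pik3r5 had 1.42, which was lost without NUP98-NSD1 replicate 1, 2 or 3, without NUP98-NSD1+NRASG12D replicate 2 or 3, after median-ratio scaling, without the filter, with a pseudocount of 0.1 and with a replicate block (adjusted p = 0.0536 to 0.170). Pik3cd had -1.16 there, which was lost without NUP98-NSD1 replicate 1, 2 or 3 and without the filter (adjusted p = 0.0993 to 0.118). Plcg2, a phospholipase C, rose in NUP98-NSD1+NRASG12D over NRASG12D cells by 0.95 (SE 0.15, adjusted p = 0.00323), which was 0.63 after quantile normalization. Its 0.39 in NUP98-NSD1 cells was lost without NRASG12D replicate 1, 2 or 3, without NUP98-NSD1 replicate 1 or 2, in the fit of all 9 libraries, after median-ratio scaling, without the filter, after quantile normalization and with a replicate block (adjusted p = 0.0524 to 0.642) and was 0.06 after median-ratio scaling and 0.08 after quantile normalization.

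**Figure D3:**
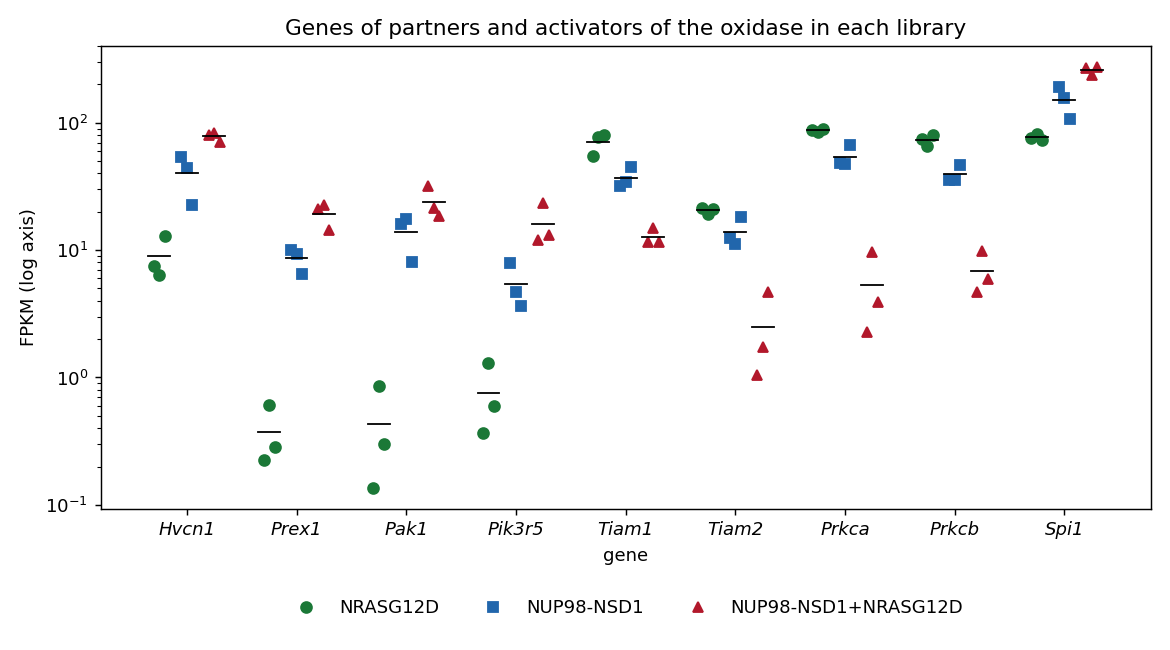
FPKM on a log axis of genes of partners and activators of the oxidase and of the transcription factor gene Spi1, with a point for each of the 9 libraries and a black line at the mean of 3. Prex1, Pak1 and Pik3r5 reach at most 0.612, 0.862 and 1.29 FPKM in the NRASG12D libraries, while Tiam1, Prkca and Prkcb are lowest in NUP98-NSD1+NRASG12D.

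The 9 genes of other NADPH oxidases and their partners, Nox1, Nox3, Nox4, Noxo1, Noxa1, Duox1, Duox2, Duoxa1 and Duoxa2, did not pass the filter. Their highest value was 0.420 FPKM, of Noxo1 in NUP98-NSD1 replicate 3. Of 5 GTPases near Rac, 4 were tested and Rac3 was not, at 0.156 to 0.437 FPKM. Rhog rose in NUP98-NSD1+NRASG12D over NRASG12D cells by 1.14 (SE 0.15, adjusted p = 0.00156), and Rhoh, which lacks GTPase activity, fell, at -1.50 (SE 0.18, adjusted p = 0.00103), both in all alternatives. In NUP98-NSD1 against NRASG12D cells Rhog had 0.42 (SE 0.10, adjusted p = 0.0130), which was lost without NUP98-NSD1 replicate 2, in the fit of all 9 libraries, after median-ratio scaling and after quantile normalization (adjusted p = 0.0517 to 0.360) and was 0.09 after median-ratio scaling and 0.11 after quantile normalization. There Rhoh had -0.26 (SE 0.11, adjusted p = 0.0799), which became -0.59 to -0.37 and passed without NUP98-NSD1 replicate 3, with array weights, after median-ratio scaling and after quantile normalization (adjusted p = 0.00371 to 0.0150). Compared between the groups with the fusion, Rhog had 0.72 (SE 0.17, adjusted p = 0.0487), which was lost without NUP98-NSD1 replicate 1, 2 or 3, without NUP98-NSD1+NRASG12D replicate 2 or 3, without the filter, without a variance trend, with a pseudocount of 0.1 and with a replicate block (adjusted p = 0.0517 to 0.187). For Rhoh it was -1.23 (SE 0.20, adjusted p = 0.0160), which was lost without NUP98-NSD1 replicate 1, 2 or 3, without NUP98-NSD1+NRASG12D replicate 3 and without the filter (adjusted p = 0.0507 to 0.0783). Cdc42, at 307 to 366 FPKM, and Rhoa, at 155 to 225 FPKM, were not called. Against NRASG12D, the -0.09 of Cdc42 in NUP98-NSD1 cells became -0.43 to -0.34 and passed after median-ratio scaling and after quantile normalization (adjusted p = 0.00529 to 0.0129), and the 0.33 of Rhoa in NUP98-NSD1+NRASG12D cells became 0.33 to 0.41 and passed without NUP98-NSD1+NRASG12D replicate 2, in the fit of all 9 libraries and with array weights (adjusted p = 0.0358 to 0.0461) and turned to -0.04 after quantile normalization. In the 3 comparisons 1 rose and 0 fell, 1 rose and 1 fell, and 1 rose and 1 fell, and at an unadjusted p under 0.05 1 was higher and 1 lower in the first. The list's medians were 0.04, 0.16 and 0.13, against 0.27, 0.23 and -0.06 for all genes, of which the shares higher and lower are given above.

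Enzymes that use or remove the products of the oxidase formed a list of 15. In NUP98-NSD1 cells 11 rose and 1 fell, in NUP98-NSD1+NRASG12D cells 6 rose and 2 fell against NRASG12D, and 0 rose and 1 fell between the groups with the fusion, where 3 were higher and 3 lower at an unadjusted p under 0.05. The medians were 0.70, 0.68 and 0.03, against 0.27, 0.23 and -0.06 for all genes. As shares, 42.2% and 9.98%, 24.2% and 14.1%, and 2.3% and 6.31% of all tested genes were higher and lower, and for all genes the calls in NUP98-NSD1 cells that were higher dropped from 5689 to 3059 after median-ratio scaling. Mpo, myeloperoxidase, which makes hypochlorous acid from hydrogen peroxide, had 0, 3.53 and 0.218 FPKM in the NRASG12D libraries, 2311, 2554 and 463 FPKM in the NUP98-NSD1 libraries and 5139.6, 1463 and 131 FPKM in the NUP98-NSD1+NRASG12D libraries, and is also on the list of neutrophil markers. Replicates spread widely, and the groups with the fusion overlapped. Against NRASG12D its changes were 9.63 (SE 0.79, adjusted p = 0.000353) and 9.14 (SE 1.29, adjusted p = 0.00197). Between the groups with the fusion it had -0.49 (SE 1.34, adjusted p = 0.896), which turned to 0.97 without NUP98-NSD1+NRASG12D replicate 3 and was -2.72 with array weights and -1.67 without NUP98-NSD1+NRASG12D replicate 1.

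Gpx1, glutathione peroxidase, had 370.2, 341 and 299 FPKM in the NRASG12D libraries, 666, 636 and 526 FPKM in the NUP98-NSD1 libraries and 824, 802 and 997 FPKM in the NUP98-NSD1+NRASG12D libraries. Prdx6, a peroxiredoxin, had 117, 135 and 126 FPKM in the NRASG12D libraries, 265, 279 and 193 FPKM in the NUP98-NSD1 libraries and 422, 284 and 640.3 FPKM in the NUP98-NSD1+NRASG12D libraries. In both the groups did not overlap, and they rose against NRASG12D in all alternatives, by 0.85 (SE 0.12, adjusted p = 0.00230) and 1.37 (SE 0.19, adjusted p = 0.00169) for Gpx1 and by 0.94 (SE 0.15, adjusted p = 0.00276) and 1.75 (SE 0.29, adjusted p = 0.00410) for Prdx6. In NUP98-NSD1 cells the value of Gpx1 was 0.52 after median-ratio scaling, and that of Prdx6 was 0.61 after median-ratio scaling. Sod2, the mitochondrial superoxide dismutase, rose by 0.79 and 1.09, of which the former was 0.45 after median-ratio scaling and 0.48 after quantile normalization. Prdx5 rose by 0.78 and 2.19. The former was lost in the fit of all 9 libraries (adjusted p = 0.0988). It was 0.45 after median-ratio scaling and 0.50 after quantile normalization. Prdx5 had 1.40 (adjusted p = 0.0672) between the groups with the fusion. This passed in the fit of all 9 libraries (adjusted p = 0.0188) and, at 1.73, with array weights (adjusted p = 0.00811). Epx, the peroxidase of eosinophils and a marker of them, was between 0 and 0.0213 FPKM in NRASG12D and had 1.51, 1.28 and 0.242 FPKM in NUP98-NSD1 and 2.26, 12.4 and 0.0329 FPKM in NUP98-NSD1+NRASG12D. Its 0.93 in NUP98-NSD1 cells was lost without NRASG12D replicate 1, 2 or 3, without NUP98-NSD1 replicate 1 or 2, in the fit of all 9 libraries, without the filter and after quantile normalization (adjusted p = 0.0569 to 0.370) and was 3.02 with a pseudocount of 0.1 and 0.44 after quantile normalization. In NUP98-NSD1+NRASG12D cells its 1.81 became 2.703 and passed without NUP98-NSD1+NRASG12D replicate 3 (adjusted p = 0.0190), and it was 0.86 without replicate 2 and 3.81 with a pseudocount of 0.1, where it did not pass.

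The oxidase draws on NADPH, and 9 genes of enzymes that supply it were tested. In NUP98-NSD1 cells 4 rose and 2 fell, in NUP98-NSD1+NRASG12D cells 5 rose and 1 fell against NRASG12D, and 0 rose and 1 fell between the groups with the fusion, with 2 higher and 1 lower at an unadjusted p under 0.05. Medians were 0.32, 0.76 and 0.11, against 0.27, 0.23 and -0.06 for all genes, with 42.2% and 9.98%, 24.2% and 14.1%, and 2.3% and 6.31% of all tested genes higher and lower. Idh1, the cytosolic isocitrate dehydrogenase, had 15.0, 19.4 and 12.9 FPKM in the NRASG12D libraries, 102, 108 and 32.1 FPKM in the NUP98-NSD1 libraries and 143, 116 and 123 FPKM in the NUP98-NSD1+NRASG12D libraries. Its rise was 2.12 (SE 0.44, adjusted p = 0.00739) and 2.95 (SE 0.19, adjusted p = 0.000106) against NRASG12D, in all alternatives, and NUP98-NSD1 replicate 3 was the lowest library with the fusion. Me1, malic enzyme, had 5.91, 7.43 and 5.99 FPKM in the NRASG12D libraries, 2.51, 2.60 and 4.93 FPKM in the NUP98-NSD1 libraries and 0.286, 1.08 and 0.958 FPKM in the NUP98-NSD1+NRASG12D libraries. It fell in NUP98-NSD1+NRASG12D cells, at -2.09 (SE 0.23, adjusted p = 0.000763), past the threshold in all alternatives, and was -0.81 (SE 0.22, adjusted p = 0.0187) in NUP98-NSD1 cells, which was lost without NRASG12D replicate 2, without NUP98-NSD1 replicate 1 or 2, in the fit of all 9 libraries and without the filter (adjusted p = 0.0507 to 0.0765). In NUP98-NSD1+NRASG12D against NUP98-NSD1 cells Me1 had -1.28, which was lost without NUP98-NSD1 replicate 1, 2 or 3, without NUP98-NSD1+NRASG12D replicate 2 or 3, after median-ratio scaling, without the filter, with a pseudocount of 0.1, after quantile normalization and with a stricter filter (adjusted p = 0.0510 to 0.168) and was -2.07 with a pseudocount of 0.1.

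G6pdx and Pgd, the dehydrogenases of the pentose phosphate pathway, rose in NUP98-NSD1+NRASG12D cells by 1.01 (SE 0.20, adjusted p = 0.00822) and 1.56 (SE 0.25, adjusted p = 0.00323) against NRASG12D. The value of G6pdx was 0.65 after quantile normalization. In NUP98-NSD1 cells Pgd had 0.59 (SE 0.14, adjusted p = 0.0120), which was lost in the fit of all 9 libraries, after median-ratio scaling, without the filter and after quantile normalization (adjusted p = 0.0531 to 0.0913) and was 0.25 after median-ratio scaling and 0.28 after quantile normalization. G6pdx had 0.32 (SE 0.12, adjusted p = 0.0537) there, which became 0.32 to 0.40 and passed without NRASG12D replicate 2, without NUP98-NSD1 replicate 3, with array weights and with a stricter filter (adjusted p = 0.0177 to 0.0481) and turned to -0.02 after median-ratio scaling. The 0.97 of Pgd between the groups with the fusion became 0.97 to 1.20 and passed without NUP98-NSD1+NRASG12D replicate 2, in the fit of all 9 libraries and with array weights (adjusted p = 0.0133 to 0.0417). Idh2 rose by 1.52 and 1.60, of which the latter was lost without NRASG12D replicate 2 or 3 and without the filter (adjusted p = 0.0505 to 0.0641). Tkt, transketolase, had 0.57 and 0.76. The former was lost in the fit of all 9 libraries and after median-ratio scaling (adjusted p = 0.0520 to 0.0582) and was 0.23 after median-ratio scaling and 0.28 after quantile normalization, and the latter was lost without NRASG12D replicate 1, 2 or 3, without NUP98-NSD1+NRASG12D replicate 3, without the filter, after quantile normalization and with a replicate block (adjusted p = 0.0613 to 0.103) and was 0.40 after quantile normalization.

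Transcription factors known to act on subunit genes formed a list of 12, of which 11 were analysed. In NUP98-NSD1 cells 8 rose and 0 fell, in NUP98-NSD1+NRASG12D cells 10 rose and 1 fell against NRASG12D, and 1 rose and 0 fell between the groups with the fusion. At an unadjusted p under 0.05, 8 were higher and 0 lower in the first, and 4 higher and 1 lower in the last of these. Their medians were 0.94, 1.74 and 0.57, against 0.27, 0.23 and -0.06 for all genes. In the same comparisons 42.2% and 9.98%, 24.2% and 14.1%, and 2.3% and 6.31% of all tested genes were higher and lower. Spi1, which encodes PU.1, had 76.4, 81.3 and 72.6 FPKM in the NRASG12D libraries, 192, 157 and 108 FPKM in the NUP98-NSD1 libraries and 269, 235 and 274 FPKM in the NUP98-NSD1+NRASG12D libraries. The groups did not overlap, and NRASG12D cells had the gene at a substantial level. It rose by 0.94 (SE 0.20, adjusted p = 0.00745) and 1.74 (SE 0.14, adjusted p = 0.000248) in all alternatives, of which the former was 0.60 after median-ratio scaling, and had 0.80 (SE 0.24, adjusted p = 0.0882) between the groups with the fusion.

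Cebpe, a factor of late granulocyte development that is also on the list of neutrophil markers, had 0, 0.272 and 0 FPKM in the NRASG12D libraries, 82.7, 64.0 and 15.8 FPKM in the NUP98-NSD1 libraries and 133, 94.8 and 136 FPKM in the NUP98-NSD1+NRASG12D libraries. Cebpd had 0.519, 1.20 and 0.740 FPKM in the NRASG12D libraries, 13.2, 10.4 and 5.44 FPKM in the NUP98-NSD1 libraries and 24.7, 20.3 and 21.0 FPKM in the NUP98-NSD1+NRASG12D libraries. NRASG12D libraries were listed at or near 0 for the former and were below the others for the latter. As for Cpa3, a listed 0 can be a failed estimate. Cebpe rose by 5.38 (SE 0.55, adjusted p = 0.000825) and 6.80 (SE 0.20, adjusted p = 1.35e-05), Cebpd by 2.50 (SE 0.30, adjusted p = 0.00126) and 3.67 (SE 0.20, adjusted p = 6.19e-05), and Cebpa by 2.202 (SE 0.41, adjusted p = 0.00513) and 2.77 (SE 0.27, adjusted p = 0.000468), all in all alternatives. Hoxa9 and Hoxa10, known to act on the Cybb gene, were at most 0.101 and 0.0507 FPKM in NRASG12D and at 37.4 to 75.8 and 11.3 to 40.4 FPKM in the others. Their groups with the fusion overlapped. Any part of Hoxa9 and Hoxa10 in the level of Cybb was not tested. With a pseudocount of 0.1, Cebpe, Hoxa9, Hoxa10 and Cebpa changed by 8.15, 8.44, 6.83 and 4.65 in NUP98-NSD1 cells, and Hoxa9, Hoxa10 and Cebpa by 8.66, 7.43 and 5.38 in NUP98-NSD1+NRASG12D cells.

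Promoters are shown for Cybb and Ncf1, the members that rose together in NUP98-NSD1+NRASG12D cells. The RefSeq table of GRCm38.p6 holds 300 bases around the RefSeq start of these genes. For Cybb this window lies inside the coordinates given above, which span the whole gene, and the starts of single transcripts were not compared. Capitals mark the letters GAGGAA, the core read by PU.1 and other ETS factors, and CCAAT, a box bound by several factors, each searched on both strands, so that GAGGAA also appears as TTCCTC and CCAAT as ATTGG. These motifs do not overlap in the windows shown. Each sequence is written 5′ to 3′ on the minus strand, the strand of the gene.
Cybb, chrX:9469275-9469574: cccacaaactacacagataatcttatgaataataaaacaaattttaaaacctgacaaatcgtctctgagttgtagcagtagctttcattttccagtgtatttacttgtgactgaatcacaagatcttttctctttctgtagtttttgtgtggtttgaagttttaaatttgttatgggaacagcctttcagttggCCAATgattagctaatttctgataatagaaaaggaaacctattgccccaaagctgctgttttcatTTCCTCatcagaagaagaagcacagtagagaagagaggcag
Ncf1, chr5:134229576-134229875: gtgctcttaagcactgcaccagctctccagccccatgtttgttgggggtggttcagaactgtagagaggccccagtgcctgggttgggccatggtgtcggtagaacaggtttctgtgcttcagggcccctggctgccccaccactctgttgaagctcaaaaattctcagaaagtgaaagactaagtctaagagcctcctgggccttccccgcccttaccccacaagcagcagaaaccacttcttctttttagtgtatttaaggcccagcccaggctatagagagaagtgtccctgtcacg
The Cybb window holds both motifs, TTCCTC at bases 260 to 265 and CCAAT at bases 195 to 199 of 300, and the Ncf1 window holds neither. Of 32851 promoters in the table, 28.3% hold GAGGAA and 37.4% hold CCAAT on either strand, so such matches are common and describe the letters only. GC content was 35.3% for Cybb and 54.0% for Ncf1.

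Genes whose pattern was most like that of a member were found by Pearson's r of log2(FPKM + 1) over the 9 libraries, which fall into 3 groups, so that a high r can come from a shared difference between groups. For Cybb they were Tlr2 (r = 0.996), Csf2ra (0.995) and Serpinb10 (0.995), with Spearman's rho of 0.933, 0.933 and 0.983. Tlr2 had 0.180, 0.471 and 0.326 FPKM in NRASG12D, 21.1, 12.3 and 14.5 FPKM in NUP98-NSD1 and 32.2, 47.2 and 48.9 FPKM in NUP98-NSD1+NRASG12D. Csf2ra, a chain of the receptor for granulocyte-macrophage colony-stimulating factor, was present in all groups, at 16.1, 17.2 and 16.5 FPKM, 92.1, 75.5 and 72.8 FPKM, and 123, 254 and 191 FPKM. For Ncf1 they were Neu1 (r = 0.987), Rab21 (0.985) and Mgarp (0.984), and for Rac2 5730409E04Rik (0.986), Prrc2b (0.982) and Rasa3 (0.981). Ncf4 was followed by Ccdc9 (0.957), Bod1l (0.909) and Atp8a1 (0.899), and Rac1 by Sft2d3 (0.972), Brap (0.958) and Numa1 (0.930).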

How the data were processed

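RNA of 9 libraries, 3 per group, was measured by sequencing. Gene tables with FPKM were deposited by the authors, made with STAR 2.7.2a and Cufflinks 2.2.1 per the submitters' processing notes, on the mouse genome GRCm38 with GENCODE M22 per the study's methods. How strand and reads that map to several places were treated is not given in the sources used here. Each table had 55330 lines for 55274 gene identifiers, and the 56 extra lines were summed. Read totals were not used here. Depth was estimated from the steps between low values of 3386 single-transcript genes longer than 2500 bases, and a floor of 3 fragments was taken for counting error. On counts simulated at the estimated depths the largest error was 5.73%. This checks how the steps are found and not the depths of the libraries themselves.

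A gene was tested where 3 or more of the 9 libraries reached 1 FPKM. A gene under this minimum in all NRASG12D libraries could pass only through libraries with the fusion. The filter thus favoured a rise of such genes against NRASG12D. Tests used log2(FPKM + 1) with limma 3.58.1 in R 4.3.3, a separate fit for each of the 3 comparisons and a variance trend. The p-values were adjusted by Benjamini and Hochberg over the tested genes and called under 0.05. The Rac2 share was compared by exact permutation over libraries and adjusted over 3 pairs. Other steps used Python 3.11.15, numpy 2.4.6, pandas 2.3.3 and matplotlib 3.10.9. A test on read counts was not run, since only FPKM were used.

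The members and the lists (subunits, partners and Rac control, activating kinases and lipid enzymes, other oxidases, GTPases near Rac, enzymes that use oxidants, enzymes that supply NADPH, transcription factors, and cell type markers) were chosen with earlier results on these samples known, so they are described by counts and medians. Named genes of a list were the 6 with the largest mean absolute change over the comparisons, with all members, Cybc1, Hvcn1 and Rap1a. The Cyba to Cybb ratio was not run, since Cyba was not analysed here. A further planned gene is not reported here. Shared sequence was counted over stretches of 50 bases of the GENCODE M21 transcripts, and promoters came from RefSeq.

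Alternatives were no filter, a stricter filter at 5 FPKM, a pseudocount of 0.1, quantile normalization, median-ratio scaling, all 9 libraries in a single fit, array weights, no variance trend, a replicate block and each library left out in turn.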

Additional observations from a re-analysis of the deposited data

How the results depend on the processing

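Of the values of members under the alternatives, 200 kept their direction and side of the threshold, 20 were weaker, 2 stronger and 3 reversed, and 1447, 108, 39 and 20 of those of other named genes; the cause was not tested. Between NUP98-NSD1 and NRASG12D cells, 3065 genes passed with all 9 libraries in a single fit, where the variance is shared. Between the groups with the fusion 152 genes passed without the filter, 2251 in the fit of all 9 libraries and 3500 with array weights, and 0 members passed without the filter, 0 after median-ratio scaling and 0 with a replicate block. With a replicate block, 6864, 4531 and 801 genes passed in the 3 comparisons. Leaving out each library gave 4736 to 7948, 2941 to 6327 and 283 to 2509 genes, 3 to 4, 2 to 3 and 0 to 2 members, and differences of the Rac2 share of -1.11 to 0.388, -1.81 to 0.606 and -1.37 to 1.05 points. Between libraries with the same replicate number, correlations of their deviations from the group means were -0.0669 to 0.0207, -0.0590 to 0.0613 and -0.177 to 0.160. With 3 libraries a group, such values cannot show whether libraries shared a mouse or an infection. In NUP98-NSD1 against NRASG12D cells, signs turned after quantile normalization for Ncf1 (-0.16), Cybc1 (-0.17) and Rhoa (-0.11), and after median-ratio scaling for Ncf1 (-0.18), Cybc1 (-0.20), Rhoa (-0.17) and G6pdx (-0.015). For NUP98-NSD1+NRASG12D against NRASG12D they turned for Rhoa after quantile normalization (-0.035) and Cdc42 with array weights (0.056). Between the groups with the fusion array weights turned Arhgap15 (-0.035), Epx (-0.13), Idh2 (-0.42) and Cebpa (-0.052). A left-out library gave -0.0046 to 0.32 for Ncf1 in the first comparison, -0.066 to 0.049 for Cdc42 in the next, and in the last -0.078 to 0.39 for Arhgap15, -1.67 to 0.97 for Mpo, -0.068 to 1.78 for Epx, -0.38 to 0.32 for Idh2 and -0.015 to 0.46 for Hoxa9. Depth limits Cybb in NRASG12D cells, where about 8 to 20 fragments stand behind a value, and 3 libraries a group limit exact tests to a p of 0.1.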
